A study of Mus musculus with 6 samples.

Results

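Lcn2 and Cp are a pair of acute phase genes of the liver whose proteins handle metals, and their levels were followed here in the livers of mice given GW4064 or vehicle. GW4064 is a man-made ligand that activates FXR, the bile acid-sensing nuclear receptor. The pair was chosen by gene symbol from the authors' deposited table of probe sets altered by GW4064, that is, on the same difference between the same 6 arrays described below. The GW4064 and vehicle levels of Lcn2 and Cp are therefore given as a description, with no test. They are 2 of the 87 genes that this table pairs with a probe set by a single symbol, and each has 1 such probe set, 1427747_a_at for Lcn2 and 1417496_at for Cp.

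All mice were adult wild type C57BL/6J, and livers came from 3 mice given GW4064 at 100 mg per kg body weight and 3 given vehicle, with 1 Affymetrix array per mouse. Each mouse received 3 doses, at 8 am, 6 pm and 8 am of the next day, and was killed 2 hours after the last. Per the study's methods, food was withheld overnight from the second dose in both groups, so GW4064 and vehicle livers were alike in being fasted. The sources used here give neither the vehicle's composition nor the sex of the mice. Array medians on the log2 scale lay between 5.87 and 5.89. Correlated with the vehicle arrays, each vehicle array and GW4064 replicate 3 averaged 0.995, GW4064 replicate 2 averaged 0.993 and GW4064 replicate 1 averaged 0.987, so the last stood farthest from vehicle.

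Lipocalin 2, the product of Lcn2, binds bacterial siderophores, the small molecules with which bacteria capture iron, and thereby withholds iron from them. It is stored in neutrophil granules and is made by hepatocytes when inflammatory cytokines reach the liver. Ceruloplasmin, the product of Cp, is a copper-containing oxidase that hepatocytes secrete into plasma, where it carries most of the copper and oxidises ferrous iron so that transferrin can bind it. Both belong to the acute phase response, in which interleukin 1 and interleukin 6 act on hepatocytes largely through the transcription factors NF-kappaB, STAT3 and the C/EBP family.

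Lcn2 went from a middling signal to one of the brightest on the array in 2 of the 3 GW4064 mice and rose much less in the other. Its log2 level was 5.95, 6.21 and 5.46 in vehicle replicates 1, 2 and 3, and 13.67, 12.97 and 8.05 in GW4064 replicates 1, 2 and 3. The groups did not overlap, and even the lowest GW4064 mouse lay 1.84 above the highest vehicle mouse on the log2 scale. The means were 5.87 ± 0.38 in vehicle and 11.57 ± 3.06 in GW4064 livers (SD, n = 3 each), which differ by 5.69 (moderated SE 1.25) or 51.6-fold. Every SE given here is from a limma fit that draws each variance toward that of all probe sets. It therefore does not follow from the SDs beside it alone. In tissue RNA, a change in the number of cells that express a gene and a change in RNA per cell cannot be told apart, which holds for every level given here.

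Cp was already bright in vehicle livers and was modestly higher after GW4064. Its log2 level was 11.50, 11.53 and 11.68 in vehicle replicates 1, 2 and 3, and 12.68, 12.30 and 11.86 in GW4064 replicates 1, 2 and 3. The groups did not overlap either, but only narrowly, since GW4064 replicate 3 lay 0.19 above the highest vehicle mouse while the vehicle mice themselves spanned 0.17. The means were 11.57 ± 0.09 and 12.28 ± 0.41 (SD, n = 3 each), which differ by 0.71 (SE 0.19) or 1.64-fold. The header of the table from which the pair was taken gives a fold of at least 1.5 and a p of at most 0.05 by the methods' t-test, so Cp stood nearer to the fold limit than Lcn2. That limit need not hold for the difference of mean log2 values used here, by which Pgd, another gene of the table, was at 1.48-fold.

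**Figure D1:**
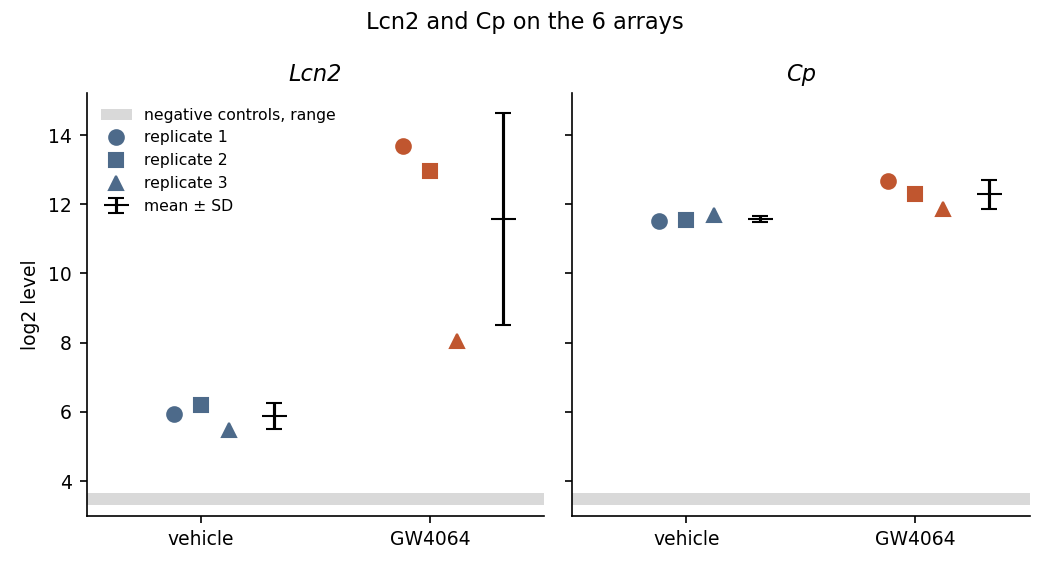
Log2 level of Lcn2 (left) and Cp (right) on each of the 6 arrays, by group; symbols mark the replicate, the bar is the mean ± SD of 3 mice, and the grey band is the range of the 3 bacterial negative control probe sets, 3.31 to 3.64. The GW4064 values of Lcn2 run from 8.05 to 13.67 and those of Cp from 11.86 to 12.68, and replicate 3 is the lowest of the 3 in both genes.

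These values were read against all 22626 probe sets other than controls, fitted together with limma. At an adjusted p under 0.05, 0 of them (0%) differed between the groups. The smallest adjusted p was 0.284, 1985 probe sets had an unadjusted p under 0.05, and by the methods' t-test 1427 had one, with 0 left after Benjamini-Hochberg adjustment. Neither Lcn2 nor Cp was therefore called. With a difference of at least 1.5-fold and an unadjusted p under 0.05, 143 or 0.632% were higher in GW4064 livers, and 2 of 2 members were among them, which follows from how they were chosen. Every GW4064 array lay above every vehicle array for 1517 probe sets or 6.70%, and this held for 2 of 2 members, from which nothing is read for the same reason. Ordered by difference, Lcn2 was at position 1 of the 22626, where the next probe set, of Saa2, differed by 4.36, and Cp was at position 104. The median difference over all tested probe sets was -0.0034.

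Lcn2 had been picked as near-silent and Cp as bright at baseline, and this was checked on each array. Lcn2 in vehicle livers stood higher than 50.9%, 54.5% and 44.2% of the tested probe sets of its own array in replicates 1, 2 and 3, and Cp higher than 97.0%, 97.0% and 97.3%. The description of Cp as bright thus held, whereas the signal of Lcn2 was at the middle of the array rather than at its dim end. Such a position cannot show whether Lcn2 in vehicle livers was above the background of its own probes, so whether it was near-silent is not settled. The 3 bacterial Trpn control probe sets, for which mouse liver has no transcript, were between 3.31 and 3.64 on the 6 arrays, and vehicle Lcn2 lay 2.46, 2.78 and 1.92 above their mean on the log2 scale. In GW4064 replicates 1, 2 and 3 Lcn2 stood higher than 99.7%, 99.2% and 77.3% of the probe sets, and Cp higher than 99.0%, 98.5% and 97.7%. The brightness of a probe set depends on its own probes as well as on its transcript, so these positions describe signal, and the levels of Lcn2 and Cp are not set against each other as amounts of RNA.

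**Figure D2:**
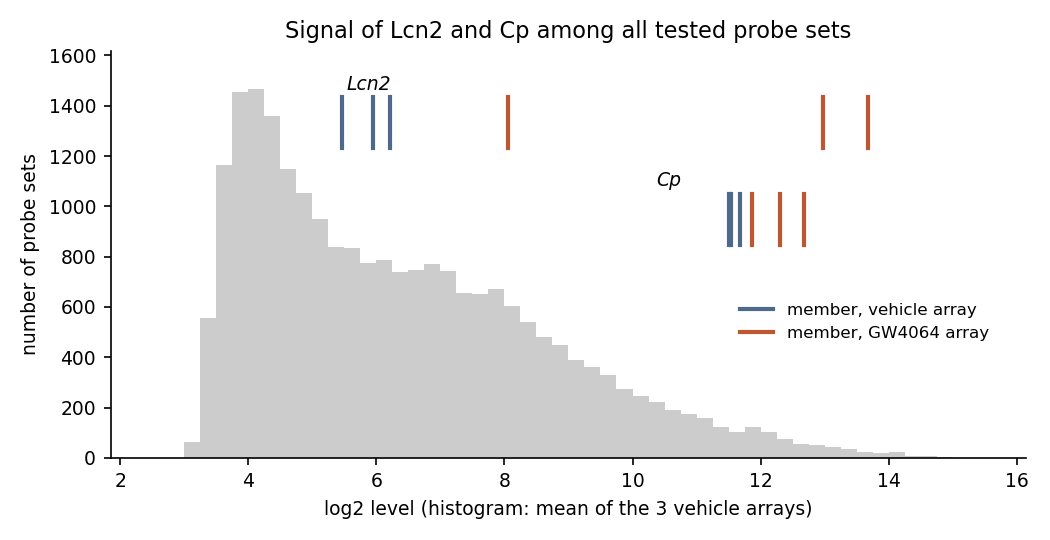
Histogram of the mean log2 level of the 22626 tested probe sets on the 3 vehicle arrays (grey; vertical axis, number of probe sets), with upright marks at the level of Lcn2 (upper row) and Cp (lower row) on each vehicle array (blue) and GW4064 array (orange). The vehicle marks of Lcn2, 5.46 to 6.21, lie about the median of the arrays, and its GW4064 marks span 8.05 to 13.67, while all 6 marks of Cp lie between 11.50 and 12.68.

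The sequence next to the start site of each gene is shown because the pair moved in the same direction. RefSeq windows on GRCm38.p6, from 250 bases before to 50 bases after an annotated start, were at hand for both genes, 1 for Lcn2 and 2 overlapping ones for Cp. They were searched on both strands for 5 motifs, namely the NF-kappaB consensus, the C/EBP motif TTGCNNAA, the STAT motif TTCNNNGAA, the FXR inverted repeat consensus and the glucocorticoid receptor element, AGAACA and TGTTCT with any 3 bases between. The C/EBP motif was found in 2 of the 3 windows and is in capitals in the sequences printed here, 5′ to 3′ along the gene. In Lcn2 it begins 216 bases before the start. In Cp, where the motif lies on the opposite strand, it begins 70 bases before the annotated start of the window printed here. The window of the other annotated Cp start holds no match and is not printed.
Lcn2, chr2:32387690-32387989, minus strand: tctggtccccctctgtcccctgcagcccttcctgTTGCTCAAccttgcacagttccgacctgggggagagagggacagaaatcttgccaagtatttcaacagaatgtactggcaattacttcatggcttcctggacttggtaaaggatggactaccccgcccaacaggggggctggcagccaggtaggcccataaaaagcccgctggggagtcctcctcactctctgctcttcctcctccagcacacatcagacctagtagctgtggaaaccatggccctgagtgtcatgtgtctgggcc
Cp, chr3:19956999-19957298, plus strand: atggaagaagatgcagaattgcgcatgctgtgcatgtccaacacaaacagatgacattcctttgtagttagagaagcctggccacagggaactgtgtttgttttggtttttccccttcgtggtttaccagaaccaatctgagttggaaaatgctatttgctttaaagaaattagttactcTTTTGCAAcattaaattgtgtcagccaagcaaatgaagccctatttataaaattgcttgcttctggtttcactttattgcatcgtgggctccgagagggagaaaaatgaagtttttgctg

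The C/EBP motif was present in 10.8% of all 32851 such windows, so a match is common, and it is a description of the letters and not evidence of a bound site. The other motifs were in 0 of the 3 windows of Lcn2 and Cp. Over all windows, the NF-kappaB consensus was in 8.46%, the STAT motif in 8.30%, the FXR inverted repeat in 0.037% and the glucocorticoid receptor element in 0.0091%. No match says only that these letters are not in these windows. G and C made up 56.3% of the window of Lcn2 and 40.0% of the printed window of Cp, against a median of 52.7% over all windows. The authors' table places Lcn2 on chromosome 2 (band A3) and Cp on chromosome 3 (band D).

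The difference between the GW4064 mice was as large as the difference between the groups in both genes. For Lcn2 the 3 GW4064 mice spanned 5.62 on the log2 scale, or 98.8% of the group difference, and the vehicle mice 0.75. GW4064 replicates 1 and 2 were only 0.70 apart, so most of the span was the 4.92 between replicates 2 and 3. For Cp the GW4064 mice spanned 0.82, or 115% of the group difference, in more even steps of 0.39 between replicates 1 and 2 and 0.43 between replicates 2 and 3. Relative to the vehicle mean, Lcn2 was 223-fold higher in GW4064 replicate 1, 137-fold in replicate 2 and 4.53-fold in replicate 3. Cp was 2.16-fold, 1.66-fold and 1.23-fold higher in the same mice.

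The spread within a group was part of the methods' t-test behind the table that the pair was taken from, and the SDs of the same 3 mice per group are therefore given as a description too. The SD of Lcn2 in GW4064 livers, 3.06, was the highest of all 22626 probe sets, for which the median was 0.114. In vehicle livers its SD of 0.38 already exceeded that of 97.9% of the probe sets, 481 being larger. The SD of Cp was ordinary in vehicle livers at 0.093, above that of 39.7% of the probe sets, and high in GW4064 livers at 0.41, above that of 96.9%. The SD was thus 8.08 times larger in GW4064 than in vehicle livers for Lcn2 and 4.42 times for Cp.

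**Figure D3:**
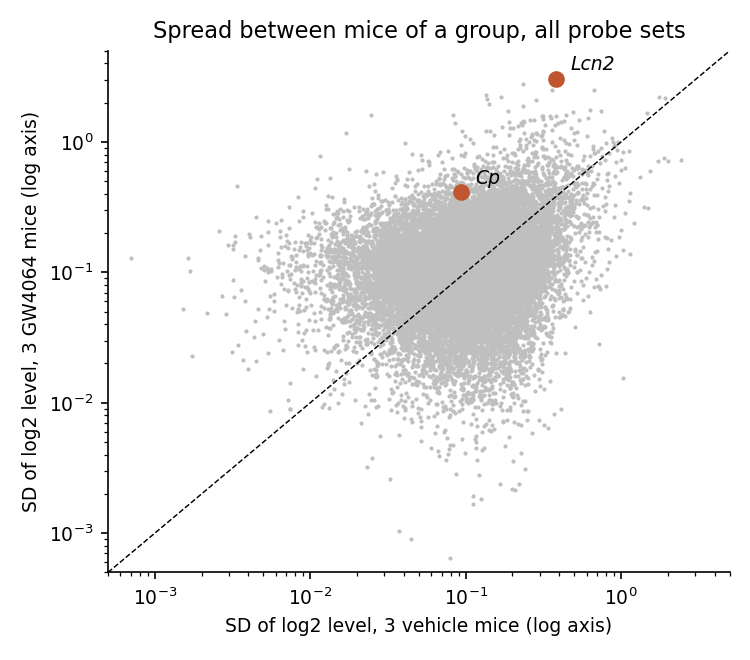
SD of the log2 level over the 3 vehicle mice (horizontal, log axis) and over the 3 GW4064 mice (vertical, log axis) for each of the 22626 tested probe sets (grey) and for Lcn2 and Cp (orange); the dashed line marks equal SDs. Lcn2 at 0.38 and 3.06 is the topmost point, and Cp at 0.093 and 0.41 lies above the line within the upper edge of the cloud.

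Because single mice weighed so heavily, the difference was recomputed without each of them. For Lcn2 it was 24.9-fold without GW4064 replicate 1, 31.7-fold without replicate 2 and 174-fold without replicate 3, and 44.8-fold to 58.0-fold without a vehicle mouse. For Cp it was 1.43-fold, 1.63-fold and 1.89-fold without GW4064 replicates 1, 2 and 3, and 1.60-fold to 1.70-fold without a vehicle mouse. Cp was thus below 1.5-fold when GW4064 replicate 1 was left out. The way of averaging mattered for Lcn2 alone of the pair, with 119-fold from the ratio of unlogged means and 130-fold from group medians, against 1.68-fold and 1.70-fold for Cp.

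To compare how the response was shared among the mice, each level was expressed as its distance from the vehicle mean divided by the group difference of that gene. On this scale vehicle mice average 0 and GW4064 mice average 1. GW4064 replicates 1, 2 and 3 were at 1.37, 1.25 and 0.38 for Lcn2 and at 1.56, 1.02 and 0.41 for Cp. Replicate 3 thus showed a like share of the log2 response in both genes, while replicate 2 stood nearer to replicate 1 in Lcn2. Over the 87 genes of the table, replicate 3 ranged from 0.239 to 1.47 with a median of 0.636, and 6 genes lay below Lcn2 and 10 below Cp.

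The same comparison on unlogged signal gave another division. Lcn2 signal was 61.9, 74.0 and 44.1 in vehicle and 13061, 8017 and 266 in GW4064 replicates 1, 2 and 3, so that replicate 3 held 0.972% of the summed gain over the vehicle mean. Cp signal was 2902, 2959 and 3271 without GW4064 and 6580, 5037 and 3730 with it, and replicate 3 held 11.0% of the gain. The likeness of Lcn2 and Cp in GW4064 replicate 3 therefore holds on the log2 scale and not on the unlogged one.

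In both genes GW4064 replicate 1 was farthest from vehicle and replicate 3 nearest. This order was shared by 52 of the 87 genes of the table and by 69.2% of the 143 probe sets that were higher at 1.5-fold and an unadjusted p under 0.05. Among all 22626 probe sets, in the direction of their own group difference, it was found in 26.9%. The order of Lcn2 and Cp was therefore that of most probe sets selected for a higher level, and not particular to them.

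The genes whose scaled profiles over the 6 arrays were most like those of the pair were then listed, by the root mean square distance between profiles among the other 86 genes of the table. All were taken from a table selected on these arrays, and a profile is scaled by its own difference, so genes that were lower can be close as well. For Lcn2 the closest were Saa2, an acute phase apolipoprotein (distance 0.073), Pgd of the pentose phosphate pathway (0.077), Prg4, a secreted lubricating proteoglycan (0.089), Derl3 of endoplasmic reticulum-associated degradation (0.095) and Ctsc, the lysosomal protease cathepsin C (0.095). Pgd was lower in GW4064 livers, by -0.57 (SE 0.14), and the other 4 were higher, Saa2 by 4.36 (SE 1.02), Prg4 by 2.07 (SE 0.47), Derl3 by 1.05 (SE 0.20) and Ctsc by 1.02 (SE 0.21). The probe sets of Saa2 and Pgd carry a suffix that marks possible detection of transcripts of other genes.

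For Cp the closest profiles were those of Hspb1, a small heat shock protein (0.080), Elk3, a transcription factor of the ETS family (0.083), Ctsc (0.100), Cyp8b1, the sterol hydroxylase of cholic acid synthesis (0.107) and Derl3 (0.116). Hspb1, Elk3 and Cyp8b1 were lower in GW4064 livers, by -1.13 (SE 0.23), -0.69 (SE 0.18) and -2.42 (SE 0.51). Ctsc and Derl3 thus stood on both lists. The distance between Lcn2 and Cp themselves was 0.164, below the median of 0.252 for either gene, and put Cp at position 18 from Lcn2 and Lcn2 at position 20 from Cp. The closest acute phase gene to Lcn2 was thus Saa2 and not Cp.

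**Figure D4:**
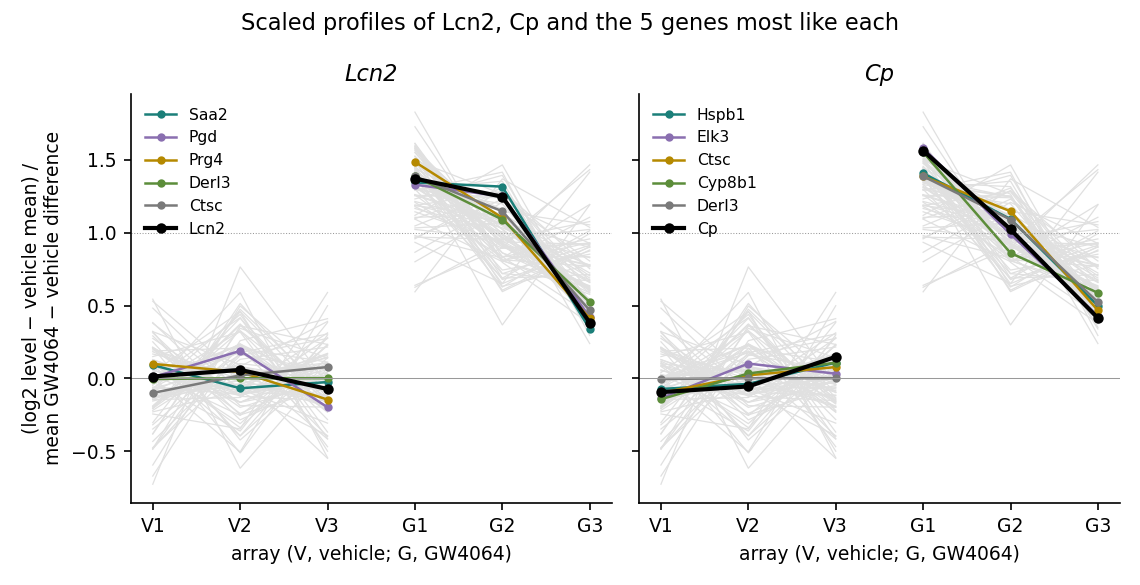
Scaled profiles on the 6 arrays (V1 to V3, vehicle; G1 to G3, GW4064), as the log2 level minus the vehicle mean divided by the mean GW4064 minus vehicle difference of the gene, for Lcn2 (left, black), Cp (right, black), the 5 genes most like each (colours) and all 87 genes (grey). Lcn2 lies at 1.37 and 1.25 in G1 and G2 and at 0.38 in G3, and Cp at 1.56, 1.02 and 0.41.

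A list of 28 genes of the acute phase held 6 with a paired probe set, namely Saa1, Saa2, Saa4, Fn1, Lcn2 and Cp. All 6 were higher at a median difference of 2.01, against -0.0034 over all tested probe sets, and 0 of the 6 passed the adjusted threshold. Only genes selected on these arrays carry a name, so neither the count nor the direction bears on the response, and the other genes of the list are not analysed here. Lcn2 had the largest difference of the 6 and Cp the smallest. Saa1, Saa2 and Saa4, whose serum amyloid A proteins travel on high density lipoprotein, were 5.71-fold, 20.5-fold and 1.97-fold higher, and Fn1, which encodes fibronectin, 2.83-fold. Their scaled value in GW4064 replicate 3 was 0.50, 0.34, 0.51 and 0.50, beside 0.38 for Lcn2 and 0.41 for Cp.

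For 3 further genes of the table, picked after their values were seen and like all its genes selected on these arrays, values on the same scale are given with no more read from them. In GW4064 replicate 3 the interleukin 1 receptor gene Il1r1 was at 0.40, the NF-kappaB regulator gene Nfkbiz at 0.54 and the chemokine gene Cxcl1 at 0.29, at group differences of 3.10-fold, 2.30-fold and 8.40-fold.

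The metal-handling side of the pair could be followed in few other genes. Of 34 genes of iron handling, 2 had a paired probe set, Lcn2 and Cp, and of 18 genes of copper handling 1, Cp. Of 14 lipocalins and receptors of lipocalin 2, Lcn2 was the 1 paired. The arrays also carry 3 control probe sets for the mouse transferrin receptor, which takes iron-loaded transferrin into cells, and these were not selected on any difference. The probe set for the 3′ end of the transcript gave log2 levels of 4.84, 4.60 and 4.63 in the vehicle mice and of 4.74, 4.65 and 4.94 in the GW4064 mice. The groups overlapped, with means of 4.69 ± 0.13 and 4.78 ± 0.15 (SD, n = 3 each), and limma over all 22690 probe sets gave a difference of 0.087 (SE 0.107, adjusted p = 0.859).

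The transferrin receptor probe sets for the 5′ end and the middle differed by 0.025 (SE 0.111, adjusted p = 0.967 by limma) and -0.0066 (SE 0.091, adjusted p = 0.988), and the sign of these differences changed with the scaling or weighting of the arrays. They were dim, at means of 4.03 and 3.64 in vehicle livers, the latter in the range of the bacterial negative controls. The probe set for the 3′ end, at a vehicle mean of 4.69, also lay below the array medians of 5.87 to 5.89. A change of the receptor was thus not detectable, which does not show that there was none.

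Lipocalin 2 is also a neutrophil product, and markers of the cells a liver holds were therefore looked for. Of 13 neutrophil markers 1 had a paired probe set, which was Lcn2 itself, and of 8 macrophage and Kupffer cell markers and 6 hepatocyte markers 0 had one. Neither the tissue label nor the part of neutrophils in the Lcn2 values could be checked on such markers, and that part was not tested.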

How the data were processed

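Expression was measured on 6 arrays, 1 per mouse. The deposited log2 levels, 1 per probe set, came from Affymetrix Power Tools per the study's methods and had nearly equal medians across arrays. Their summarisation method, version and annotation were not given in the sources used here. Per the labels the array was Mouse Gene 1.0 ST, but identifiers and the header of the authors' table are those of Mouse430A_2. That table, of probe sets altered by at least 1.5-fold at an unpaired t-test p of at most 0.05, was read only for symbols, Entrez identifiers and chromosome bands. Its fold and direction were not used. Of its 110 probe sets, 99 had 1 symbol (87 genes, the brightest probe set standing for a gene).

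Groups and replicate numbers came from the sample titles. The groups were fitted with limma 3.58.1 (R 4.3.3) with no covariate, two-sided, over 22626 probe sets (64 controls set aside, no filter), with Benjamini-Hochberg adjustment. The same kind of limma fit and adjustment was tried on simulated data, but apart from the code that gave the results. For the transferrin receptor controls all 22690 probe sets were fitted. Differences are GW4064 minus vehicle with the moderated SE. The number of arrays limits the precision. Nothing says that the mice were littermates or not. The limma p-values weigh a difference of means against the spread between these 3 mice per group, drawn toward that of all probe sets.

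The genes, lists and motifs were chosen with earlier results of these data known. The named genes are Lcn2, Cp, the 5 genes of the authors' table nearest to each in scaled profile, and the paired members of the lists of acute phase, iron, copper and lipocalin genes; Cxcl1, Il1r1 and Nfkbiz were added after their values were seen. Alternatives were other normalizations, array weights, another prior, the methods' t-test, a filter on dim probe sets, a replicate block, other averages, a floor at the negative controls and leaving out each array. The array weight was lowest for GW4064 replicate 1, at 0.592, and highest for GW4064 replicate 2, at 1.80. With these weights Lcn2 was 58.6-fold and Cp 1.61-fold higher in GW4064 livers. Proteins of the pair were not analysed here.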

Additional observations from a re-analysis of the deposited data

How the results depend on the processing

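The differences of Lcn2 and Cp kept their direction under every alternative run. Lcn2 ranged from 4.64 to 7.45 and Cp from 0.51 to 0.92 on the log2 scale, both extremes coming from leaving out a GW4064 mouse. Since neither gene overlaps between the groups, leaving out or weighting arrays could not have turned them. Raising values to the negative controls changed nothing, as no value of the pair lay below them. A second probe set for either gene could not be tried, since symbols came only from the authors' table, which gives each of the pair 1. That table lists only altered probe sets, so any other probe set of Lcn2 or Cp that missed its limits would carry no symbol here. The differences are therefore those of 1 selected probe set per gene. The count at an adjusted p under 0.05 was 0, 1 (lower) with arrays set to equal beta-actin and Gapdh controls, and 0 to 70 without 1 array, the highest without GW4064 replicate 3, for a cause that was not tested. Probe sets at 1.5-fold and an unadjusted p under 0.05 numbered 283, 97 when the methods' t-test was used, and between 158 (GW4064 replicate 1 left out) and 573 (GW4064 replicate 3 left out) without 1 array. The transferrin receptor differences turned sign for the 5′ end with array weights (-0.0020) and without 1 array (-0.033 to 0.12), and for the middle with equal medians (0.0063), with equal beta-actin and Gapdh controls (0.013) and without 1 array (-0.071 to 0.059), and passed no threshold. For the 3′ end the range without 1 array was 0.0065 to 0.16.

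With the replicate block these 2 counts came to 0 and 304 and the differences stayed at 5.69 (SE 0.91) for Lcn2 and 0.71 (SE 0.18) for Cp, while those of the transferrin receptor were 0.087, 0.025 and -0.0066. The replicate numbers of the titles restart in each group without naming a pairing. The deviations of same-numbered mice correlated at -0.0019, 0.053 and -0.034 over probe sets. Such correlations cannot show whether same-numbered mice were paired, which is left unknown.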
